A study of Mus musculus with 14 samples.

Results

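The 10 genes described here belong to 4 vasoactive systems and were followed in liver and kidney: the ligand Edn1 and the receptors Ednra and Ednrb of the endothelin system, the nitric oxide synthases Nos1 and Nos3, the prostaglandin genes Ptgs1, Ptgs2 and Ptger3, and Klk1 and Bdkrb2 of the kallikrein-kinin system. These 10 were picked by gene symbol out of 20203 genes counted in kidney and 19660 counted in liver. All 10 were found in kidney and 9 in liver, where Ptgs2 was not analysed here. RNA was sequenced from male mice, 12 weeks old, all of which bore, as a transgene, the human angiotensinogen gene in its -6A haplotype (genotype Hap -6A). The groups were kidney on the Normal Diet (Basal, 3 libraries), kidney on High Salt (3), liver on the Normal Diet (4) and liver on High Salt (4), and no group lacked the transgene. The transgene itself was not analysed here. The labels do not say whether the libraries of a group came from separate animals, so each p-value measures only the spread between these libraries.

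Endothelin 1 is a peptide made by endothelium and by tubule cells of the renal medulla. Its ETA receptor, encoded by Ednra, constricts vessels, while the ETB receptor, encoded by Ednrb, clears the peptide, relaxes vessels through nitric oxide and slows sodium uptake in the collecting duct. Nitric oxide, prostaglandin E2 and the kinins released by tissue kallikrein also widen vessels and promote sodium loss, and the EP3 receptor encoded by Ptger3 lowers cyclic AMP and opposes vasopressin in the distal nephron.

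Kidney libraries held 16046094 to 22004927 counts and liver libraries 37267778 to 51487382. Levels are given as CPM, the usual depth-scaled count, over TMM library sizes. The printed CPM were scaled within each tissue, so kidney and liver CPM are not on the same scale. Fitted tissue differences and count ratios between tissues use a joint scaling instead. Mitochondrial genes took 23.5% to 41.2% of kidney counts. In liver they took 2.30% and 2.06% in normal diet libraries 1 and 2, 29.6% and 18.7% in normal diet libraries 3 and 4, and 11.3% to 19.2% on high salt. Normal diet liver libraries 1 and 2 stood apart on the first principal component, at -56.8 and -60.0, where the other 6 liver libraries lay between 13.1 and 24.8. The tissue labels were met by their markers: summed hepatocyte markers were at least 53640 CPM in each liver library and at most 1634 CPM in kidney, and thick ascending limb markers were at least 1943 CPM in kidney and at most 7.26 CPM in liver.

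In kidney the EP3 receptor gene Ptger3 had the largest difference between diets among the 8 genes tested, at 48.1 ± 5.19 CPM with normal diet and 28.1 ± 3.75 CPM with high salt (SD, n = 3 each). In liver both endothelin receptor genes had higher levels on high salt, Ednra 2.72 ± 0.287 against 1.44 ± 0.517 CPM and Ednrb 4.34 ± 0.341 against 2.61 ± 0.887 CPM (SD, n = 4 each). None of these differences passed adjustment over all genes with edgeR's quasi-likelihood test. The clearest contrast was between the tissues: Klk1 and Ptger3 had 26 and 1 counts in normal diet liver against 32902 and 2779 in normal diet kidney, and Edn1 and Ednrb were 4.15-fold and 4.64-fold higher there.

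The windows upstream of a RefSeq start of each of the 3 receptor genes above are shown because these genes had the diet differences that did not overlap between libraries. The Ednrb window lies inside the annotated span of that gene, so it is upstream of the RefSeq start used and not of the whole gene. The sequences are from RefSeq (GRCm38.p6) and were cut to bases before the start that lie in no annotated exon. Capitals mark motifs found on either strand. The search covered 6 motifs: the GC box with the letters GGGCGG, the promoter box of the TATA-binding protein with the letters TATAAA, the box bound by NF-Y with the letters CCAAT, the AP-1 site with the letters TGANTCA, the E-box with the letters CACGTG, and the site of the GATA factors with the letters AGATAA. No match overlapped another in these windows.
Ednra, chr8:77724465-77724702, minus strand: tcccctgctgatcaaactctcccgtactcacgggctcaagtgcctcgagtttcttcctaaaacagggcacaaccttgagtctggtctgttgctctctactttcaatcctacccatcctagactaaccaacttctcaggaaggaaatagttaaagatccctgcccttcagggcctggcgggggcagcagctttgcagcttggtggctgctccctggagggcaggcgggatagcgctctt
Ednrb, chr14:103843702-103843951, minus strand: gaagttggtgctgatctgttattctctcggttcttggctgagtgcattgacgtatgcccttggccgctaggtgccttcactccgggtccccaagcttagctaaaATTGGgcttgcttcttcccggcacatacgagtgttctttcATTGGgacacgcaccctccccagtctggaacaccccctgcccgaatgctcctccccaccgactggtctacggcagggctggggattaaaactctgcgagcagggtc
Ptger3, chr3:157566626-157566875, plus strand: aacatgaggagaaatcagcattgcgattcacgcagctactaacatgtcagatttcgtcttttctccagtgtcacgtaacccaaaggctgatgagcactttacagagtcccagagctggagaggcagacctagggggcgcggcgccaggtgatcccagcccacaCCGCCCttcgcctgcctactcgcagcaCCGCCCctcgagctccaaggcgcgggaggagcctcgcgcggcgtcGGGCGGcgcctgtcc
The Ednrb window held a pair of NF-Y boxes read from the reverse strand, whose outer bases lay 146 and 106 bases before the RefSeq start. The Ptger3 window held 3 GC boxes, with outer bases 87, 60 and 15 bases before the start. The Ednra window of 238 bases held none of the 6 motifs. Among 32851 RefSeq windows of 250 bases, 33.8% held an NF-Y box and 32.7% a GC box, so neither match is rare. The endothelin receptor windows shared no listed motif.

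The tissue patterns set the scale of the diet values. Per kilobase (kb) of annotated exon, the kidney order on the normal diet was led by Klk1 at 528 ± 139 CPM per kb, followed by Ptger3 at 8.45 ± 0.913, Ednrb at 4.10 ± 1.05 and Ptgs1 at 3.52 ± 0.978 (SD, n = 3). Edn1 followed at 0.646 ± 0.15 CPM per kb. Ednra at 0.332, Nos3 at 0.244, Ptgs2 at 0.17, Bdkrb2 at 0.11 and Nos1 at 0.0526 CPM per kb came last, and each overlapped its neighbour in this order, as Ednrb and Ptgs1 did. On high salt the order was the same, but Ptger3 at 4.93 ± 0.66 now overlapped Ednrb at 4.63 ± 0.697 CPM per kb. In liver on the normal diet Ptgs1 led at 2.64 ± 1.65 CPM per kb (SD, n = 4), above Ednrb at 0.612 ± 0.208, Nos3 at 0.366 ± 0.177 and Ednra at 0.263 ± 0.0944, the last 3 overlapping in turn. On high salt liver Ednra at 0.496 ± 0.0524 CPM per kb stood ahead of Nos3 at 0.417 ± 0.0724, with overlap.

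**Figure D1:**
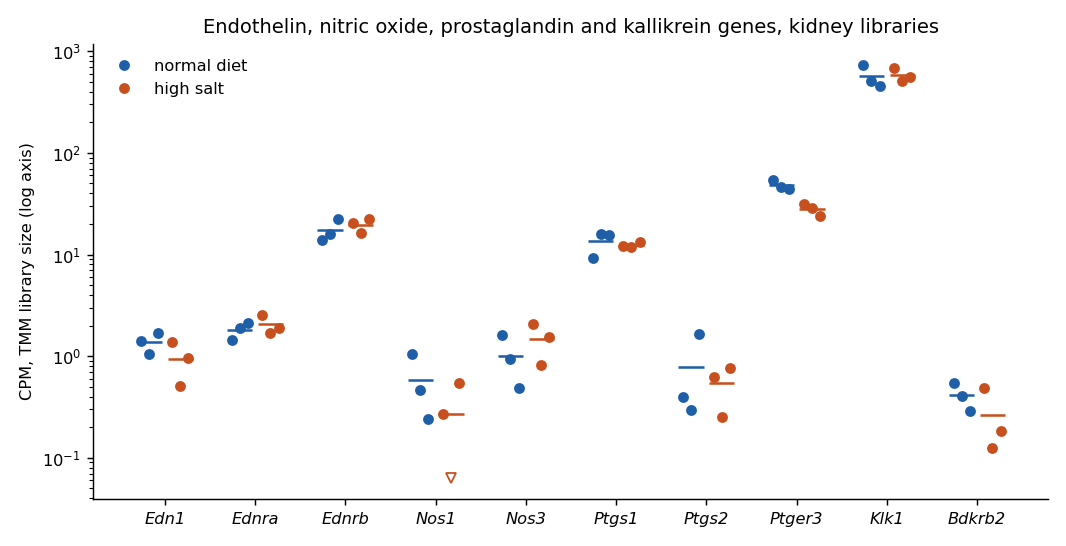
CPM over TMM library sizes on a log axis for the 10 genes in each kidney library. Filled points are libraries, bars are group means, and an open triangle marks a library with a count of 0. Klk1 lies at 455 to 738 CPM, and Ptger3 is the gene whose high salt points all lie under its normal diet points.

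The tissues were compared on the normal diet in 1 edgeR quasi-likelihood fit of all 14 libraries, where 65.1% of 16633 genes passed an adjusted p of 0.05, 32.2% with kidney higher and 32.9% with liver higher. Since kidney and liver were deposited as separate count tables of different depth, tissue and table cannot be told apart. The labels do not say whether kidney and liver libraries came from the same mice, and the fit treated all 14 as independent. Nos1, Ptger3, Klk1 and Bdkrb2 entered this fit through their kidney counts, so for them counts are given without a p. The Ptgs2 gene was not in this fit.

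Klk1, which encodes tissue kallikrein, the protease that frees kinins from kininogen, is at chr7:44225360-44229618 (GRCm38, plus strand). It had 738, 512 and 455 CPM in the normal diet kidneys and 680, 509 and 554 CPM in the high salt kidneys. In liver it had 26 counts over the 4 normal diet libraries and 65 over the 4 high salt libraries. Summed normal diet counts, 32902 in kidney against 26 in liver, gave a level 2290-fold higher in kidney (95% counting interval 1560 to 3510). Such intervals allow for counting error alone, since without molecular identifiers 2 reads may stem from 1 molecule. The mouse genome holds many related Klk1b genes, of which Klk1b5 matched the Klk1 transcript at 94.1% and Klk1b16 at 81.9% of aligned bases. The deposited values are estimated expected counts and not always whole, such as 8738.47 for Klk1 in normal diet kidney library 2. The settings used for reads that match several of these genes are not given in the sources used here. Of these genes, none averaged more than 1.44 CPM on either diet in kidney.

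Ptger3 (chr3:157566892-157645888, plus strand) had 2779 counts over the normal diet kidney libraries and 1 count over the normal diet liver libraries. The ratio was 5030 with a counting interval of 903 to 199000. The ratio's size is set by that single liver count. In kidney it was the second most abundant of the 10 genes per length.

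Edn1 (chr13:42301476-42307990, plus strand) and Ednrb (chr14:103814625-103844402, minus strand) were also higher in kidney, with 34 liver counts for Edn1 and 388 for Ednrb over the normal diet libraries. The log2 difference between kidney and liver was 2.05 (SE 0.472) for Edn1 and 2.21 (SE 0.239) for Ednrb, with edgeR adjusted p = 0.00138 and 1.14e-06. Ednra (chr8:77663031-77724464, minus strand) differed by -0.19 (SE 0.293, edgeR adjusted p = 0.582) and Ptgs1 (chr2:36230426-36252272, plus strand) by -0.10 (SE 0.36, edgeR adjusted p = 0.823), so neither passed. Both of these near-zero differences changed sign with upper quartile scaling, to 0.10 for Ednra and 0.18 for Ptgs1, a scaling that moved the median of all genes by 0.3.

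Of the nitric oxide synthases, Nos3, the endothelial enzyme (chr5:24364810-24384474, plus strand), was 2.15-fold lower in kidney than in liver, with a log2 difference of -1.11 (SE 0.454) and edgeR adjusted p = 0.043. It passed in 8 of the 19 alternative fits, whose adjusted p ran from 0.0119 to 0.21. Nos1, the neuronal enzyme that macula densa cells also use (chr5:117781032-117958840, plus strand), had 34 counts in the normal diet kidneys and 7 in the normal diet livers, a depth-scaled ratio of 8.80 (95% counting interval 3.84 to 23.5). Bdkrb2, the constitutive kinin receptor gene (chr12:105563226-105595237, plus strand), had 24 and 9 counts, a depth-scaled ratio of 4.83 (interval 2.17 to 11.8). Exons of Edn1, Ednra, Nos1, Nos3 and Ptgs1 overlap those of genes on the opposite strand, such as Atg9b at Nos3, and use of strand in the counting is not given in the sources used here, so these values are uncertain.

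**Figure D2:**
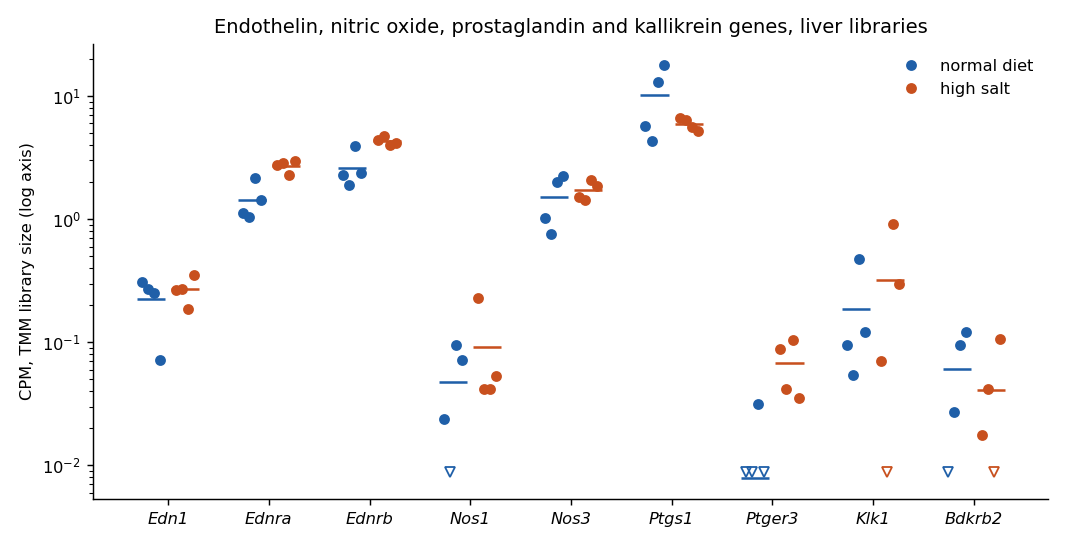
CPM over TMM library sizes on a log axis for the 9 genes in each liver library. Filled points are libraries, bars are group means, and open triangles mark counts of 0. Ednra and Ednrb are the well-counted genes whose diets do not overlap, and Nos1, Ptger3, Klk1 and Bdkrb2 lie near or under 1 CPM.

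Between diets in kidney, no gene passed an adjusted p of 0.05 (0% of 15847 tested by edgeR). At an unadjusted p under 0.05, 318 genes passed (2.01%, made up of 1.27% higher and 0.732% lower on high salt), and DESeq2 called 11 after adjustment. Of the 10 genes, 8 had enough counts to be tested and 0 passed, with 1 under an unadjusted p of 0.05. Their median log2 difference was -0.05, with 4 of 8 above 0, beside a median of -0.02 and 46.3% above 0 over all genes tested. Nos1 and Bdkrb2 lay under the filter on low counts.

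The endothelin genes of the kidney overlapped between diets. Edn1 had 1.399, 1.05 and 1.69 CPM with normal diet and 1.38, 0.504 and 0.955 CPM with high salt. The lowest value belonged to a high salt library, but the highest high salt value lay inside the normal diet range. The log2 difference was -0.53 (95% interval -1.55 to 0.496). Ednra had 1.45, 1.87 and 2.13 CPM against 2.55, 1.70 and 1.91 CPM, and its log2 difference of 0.18 had an interval of -0.554 to 0.913. Ednrb had 13.99, 15.9 and 22.5 CPM against 20.5, 16.4 and 22.2 CPM, a log2 difference of 0.18 (interval -0.369 to 0.721). The log2 ratio of Ednrb to Ednra within a library, which library scaling barely touches, was 2.94 ± 0.173 with normal diet and 2.99 ± 0.228 with high salt (SD, n = 3, two-sided exact permutation p = 0.7).

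The nitric oxide synthases were scarce in whole kidney. Nos3 had 1.599, 0.937 and 0.484 CPM with normal diet and 2.054, 0.819 and 1.55 CPM with high salt, with overlap and a log2 difference of 0.56 (95% interval -0.651 to 1.77). That difference was 0.22 without normal diet library 3 and 1.08 without normal diet library 1. Nos1 had counts of 21, 8 and 5 against 6, 0 and 12, too few for the test. Set against the mean of the endothelium markers, Nos3 differed by 0.16 on the log2 scale (two-sided exact permutation p = 0.8).

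Among the 8 genes tested in kidney, the widest diet difference was that of the prostaglandin receptor gene Ptger3. Ptger3 had 54.0, 46.1 and 44.1 CPM in the normal diet libraries and 31.6, 28.4 and 24.1 CPM in the high salt libraries. All 3 high salt libraries lay under all 3 normal diet libraries, a separation in that direction seen for 3.07% of all genes tested (6.92% in either direction, 3.85% upward). The log2 difference was -0.78 (SE 0.191, 95% interval -1.22 to -0.337), a level 0.584 times that on the normal diet. By edgeR's quasi-likelihood test p was 0.00351 before and 0.9996 after adjustment over all genes, so the difference did not pass. With 3 libraries against 3 an exact permutation test cannot go below 0.1, and Ptger3 was at that limit. Over 15 alternative fits its log2 difference stayed between -0.87 and -0.68, and its adjusted p between 0.204 and 1, never passing.

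Markers of the distal convoluted and connecting tubule were also lower on high salt. Their summed level was 873, 817 and 755 CPM with normal diet and 675, 681 and 521 CPM with high salt, without overlap. A log2 difference above 0 was seen for 0 of the 6 markers, beside 46.3% of all genes tested. Calb1, a calcium-binding protein of these segments, differed by -0.55 (edgeR unadjusted p = 0.021, adjusted p = 0.9996) and Pvalb by -0.92 (edgeR unadjusted p = 0.0235, adjusted p = 0.9996). Thick ascending limb markers, from a segment where the EP3 receptor is known to act, overlapped between diets at 2181 to 3288 CPM against 1943 to 2609 CPM. Collecting duct principal cell markers overlapped too, at 120.7 to 179.8 CPM against 136.5 to 188.5 CPM, with 5 of 7 above 0. In whole tissue, fewer cells of a type and less RNA per cell cannot be told apart. The part of any of these segments in the Ptger3 difference was not tested.

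**Figure D3:**
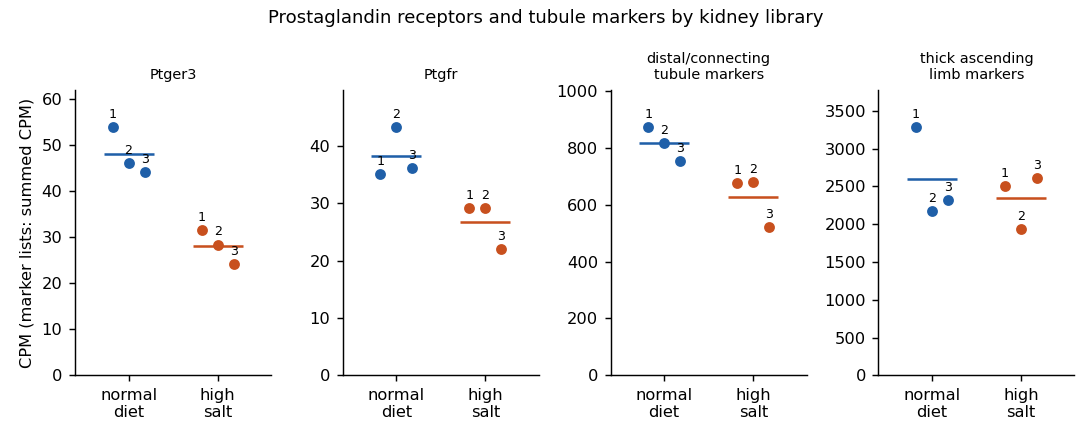
CPM of Ptger3 and Ptgfr and summed CPM of 2 lists of tubule markers in each kidney library, numbered by replicate; bars are group means. Ptger3, Ptgfr and the distal and connecting tubule markers separate by diet, and the thick ascending limb markers overlap.

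Ptgs1, the constitutive cyclooxygenase, had 9.29, 16.0 and 15.7 CPM with normal diet and 12.1, 12.0 and 13.1 CPM with high salt. Its high salt values all lay inside the normal diet range, with a log2 difference of -0.14 (95% interval -0.708 to 0.425). Ptgs2, the inducible cyclooxygenase that the macula densa and medullary interstitial cells make (chr1:150100031-150108227, plus strand), had counts of 8, 5 and 34 against 14, 4 and 17. Normal diet library 3 held most of the normal diet counts. The log2 difference of -0.49 had an interval of -2.16 to 1.19 and became 0.68 without that library. The 2 renin cell markers went opposite ways, Ren1 at 25.3 ± 4.01 against 14.7 ± 2.19 CPM (SD, n = 3 each, log2 difference -0.78) and Akr1b7 at 1.48 ± 0.591 against 1.96 ± 0.868 CPM (0.39).

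Klk1 levels in kidney, given above, overlapped between diets, with a log2 difference of 0.03 (95% interval -0.555 to 0.62). Its log2 ratio to the mean of the distal and connecting tubule markers, cells known to make kallikrein, was 3.26 ± 0.0755 with normal diet and 3.70 ± 0.213 with high salt (SD, n = 3). That ratio did not overlap between diets, yet its two-sided exact permutation p of 0.1 is the smallest that 3 against 3 allows, and 0.8 after adjustment over the 8 ratios tested. Bdkrb2 had counts of 11, 7 and 6 against 11, 2 and 4 and was too low to test.

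Other genes of these pathways were taken from lists of 70 symbols, of which 48 were tested in kidney. None passed, 18 had a log2 difference above 0 (46.3% of all genes) and 4 had an unadjusted p under 0.05 (2.01% of all genes). Those 4 were Klk1b16, Arg2, Ptgfr and Ptger4. Klk1b16, a gene of the Klk1b family, had 12, 15 and 19 counts with normal diet and 1, 1 and 6 with high salt (log2 difference -2.55, SE 0.671, edgeR unadjusted p = 0.00509). Ptgfr, the receptor for prostaglandin F2-alpha, had 35.2, 43.3 and 36.2 CPM against 29.2, 29.2 and 22.0 CPM, again without overlap (log2 difference -0.51, SE 0.197, edgeR unadjusted p = 0.0316). Ptger4, which encodes the EP4 receptor, had 2.90, 5.74 and 6.10 CPM against 2.32, 3.403 and 2.82 CPM, with overlap. Arg2, an arginase that uses the substrate of nitric oxide synthase, had 3.20, 2.58 and 3.73 CPM against 3.44, 6.87 and 7.41 CPM, also overlapping. The adjusted p was 0.9996 for each of these 4 in edgeR's test. By list, the median log2 difference was 0.07 for 2 endothelin genes, -0.11 for 17 nitric oxide genes, -0.01 for 17 prostaglandin genes and -0.18 for 12 kallikrein-kinin genes.

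Between diets in liver, edgeR's quasi-likelihood test called 152 of 15130 genes at an adjusted p under 0.05 (1%, made up of 0.595% with higher and 0.41% with lower high salt levels), and 21.2% of genes had an unadjusted p under 0.05. Of the 9 genes counted in liver, 5 passed the filter on low counts and 0 were called. Ednra and Ednrb had an unadjusted p under 0.05, both higher on high salt, as did 9.83% of all genes in that direction. The median log2 difference of the 5 was 0.26, with 4 above 0, beside a median of -0.02 and 48% above 0 over all genes tested. DESeq2 called 1122 of the 15130 genes, and 1 of the 5, Ednra, was among them.

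Ednra had 1.12, 1.03, 2.17 and 1.44 CPM in the 4 normal diet livers and 2.75, 2.84, 2.31 and 2.97 CPM in the 4 high salt livers. All 4 high salt values lay above all 4 normal diet values, as did those of 6.44% of all genes tested in that direction (12.5% in either, 6.05% downward). The closest were normal diet library 3 and high salt library 7. The log2 difference was 0.92 (SE 0.272, 95% interval 0.311 to 1.53), a 1.89-fold higher level, with unadjusted p = 0.00717 and adjusted p = 0.125 by edgeR. DESeq2 gave an adjusted p of 0.021. Counts were 214 over the normal diet and 571 over the high salt libraries. Its two-sided exact permutation p over libraries was the smallest that 4 against 4 allows, under 0.05.

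Ednrb had 2.28, 1.88, 3.90 and 2.38 CPM with normal diet and 4.42, 4.79, 4.01 and 4.15 CPM with high salt. These groups did not overlap either, though normal diet library 3 lay just under high salt library 7. The log2 difference was 0.74 (SE 0.245, 95% interval 0.19 to 1.28), a 1.67-fold higher level, with unadjusted p = 0.0133 and adjusted p = 0.152 by edgeR. The log2 ratio of Ednrb to Ednra was 0.68 ± 0.0947 with normal diet and 0.59 ± 0.118 with high salt (SD, n = 4, two-sided exact permutation p = 0.314), so a change in the balance of the receptors was not detected.

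Both receptor differences leaned on which normal diet livers were kept. Without normal diet library 3, Ednra passed at adjusted p = 0.034 and Ednrb at 0.0332 in edgeR, with log2 differences of 1.17 and 0.98. That fit called 765 of 15130 genes, against 152 in the main fit, so passing there was not particular to these receptors. Without normal diet libraries 1 and 2, which stood apart and had the lowest mitochondrial share, the log2 difference of Ednra was 0.59 (edgeR unadjusted p = 0.0464, adjusted p = 0.303) and that of Ednrb 0.47 (edgeR unadjusted p = 0.0883). With high salt libraries 5 and 6 summed as 1, the log2 differences were 0.90 and 0.71 (edgeR adjusted p = 0.315 and 0.349). The part of those 2 normal diet libraries' mitochondrial share in the difference was not tested.

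Marker lists of the cells known to carry these receptors differed in how they compared between diets. Summed markers of fibroblasts and hepatic stellate cells were 97.8, 122, 144 and 75.7 CPM with normal diet and 176, 175, 159 and 175 CPM with high salt, without overlap. All 7 of these markers had a log2 difference above 0, beside 48% of all genes tested. Of them, 4 (Dcn, Col1a1, Col3a1 and Reln) had an edgeR unadjusted p under 0.05 and no overlap, though none passed adjustment. Over all genes tested, 9.83% were higher at an unadjusted p under 0.05 and 6.44% separated upward. Summed endothelium markers overlapped, at 37.0, 34.8, 89.1 and 67.1 CPM against 99.9, 98.6, 56.7 and 89.8 CPM, and all 8 had a log2 difference above 0. Summed markers of smooth muscle, mesangium and pericytes also overlapped, at 30.0 to 70.6 CPM against 36.6 to 49.5 CPM, with 2 of 5 tested above 0. Set against the mean of the endothelium markers, Ednrb differed between diets by 0.11 on the log2 scale (two-sided exact permutation p = 0.543). The part of these cell types in the receptor differences was not tested.

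**Figure D4:**
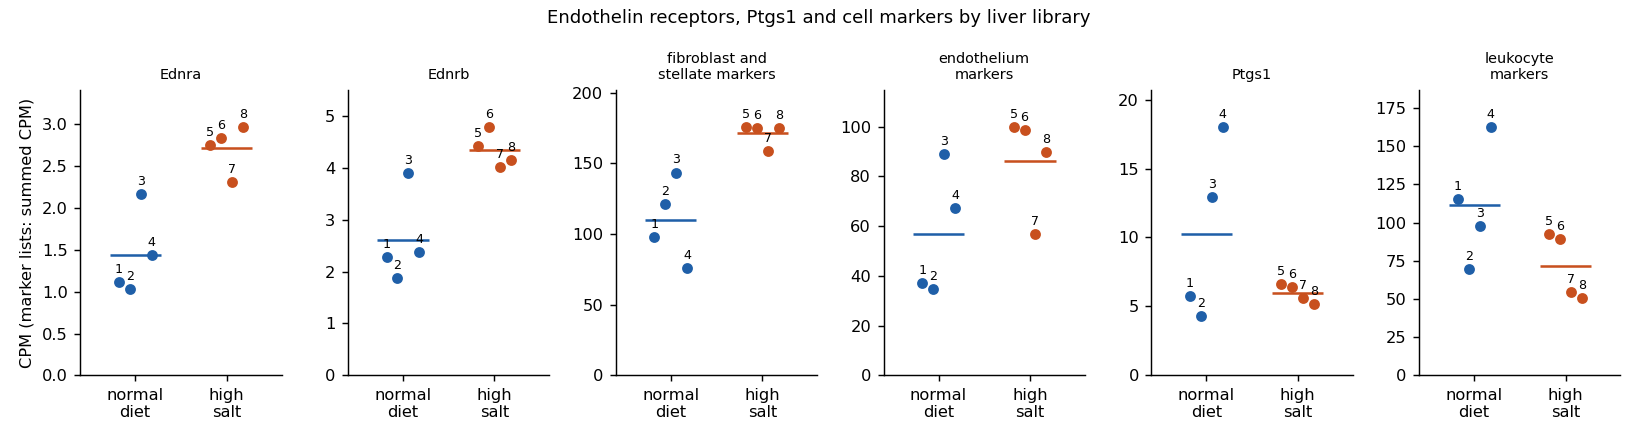
CPM of Ednra, Ednrb and Ptgs1 and summed CPM of 3 lists of cell markers in each liver library, numbered as in the deposited columns; bars are group means. Ednra, Ednrb and the fibroblast and stellate markers separate by diet, while Ptgs1 is high in normal diet libraries 3 and 4 only.

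Ptgs1 had 5.73, 4.33, 12.9 and 18.02 CPM in the normal diet livers and 6.62, 6.38, 5.59 and 5.18 CPM in the high salt livers. The high salt values were close together, above the lowest normal diet library and under normal diet libraries 3 and 4. The log2 difference was -0.79 (SE 0.399, 95% interval -1.68 to 0.104) with edgeR unadjusted p = 0.0773 and adjusted p = 0.286. It shrank to -0.37 without normal diet library 4 and widened to -1.38 (edgeR adjusted p = 0.0396) without libraries 1 and 2. Summed macrophage and leukocyte markers were 116, 69.6, 97.6 and 163 CPM against 92.7, 89.3, 54.5 and 50.9 CPM, with library 4 highest, and their part in the Ptgs1 values was not tested.

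Edn1 was near the floor in liver, with 0.309, 0.273, 0.252 and 0.0721 CPM against 0.266, 0.269, 0.187 and 0.353 CPM. Its log2 difference of 0.26 had an interval of -0.736 to 1.25. Nos3 had 1.02, 0.763, 2.01 and 2.26 CPM against 1.53, 1.43, 2.08 and 1.86 CPM, a log2 difference of 0.19 (interval -0.612 to 0.985). Neither gene separated the diets. Nos1 had 7 and 20 counts in the diet groups, of which 13 were in high salt library 5. Ptger3 had 1 count with normal diet and 14 with high salt, a ratio of 10.2 with a counting interval of 1.55 to 430. The high salt counts were 5, 2, 5 and 2. Klk1 had counts of 4, 2, 15 and 5 against 4, 0, 44 and 17. In CPM it was highest in high salt library 7 (0.915), then normal diet library 3 (0.472) and high salt library 8 (0.300). Proximal tubule markers, which mark kidney cells, were highest in high salt libraries 7 and 8, at 8.25 and 4.64 CPM. These markers were at 1.54 CPM in normal diet library 3. Their part in the liver Klk1 counts was not tested. Bdkrb2 had 9 counts on each diet.

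Of the other pathway genes, 43 were tested in liver and none passed by edgeR, with 27 above 0 on the log2 scale (48% of all genes). At an unadjusted p under 0.05 the high salt level was higher for 8 and lower for 4 of them, beside 9.83% and 11.3% of all genes. Ptges2, a prostaglandin E synthase, had 26.8, 29.8, 14.03 and 32.9 CPM with normal diet and 11.8, 13.97, 12.2 and 12.6 CPM with high salt. The groups were separated by a narrow gap at normal diet library 3, and the log2 difference of -1.03 (SE 0.24) had edgeR unadjusted p = 0.00155 and adjusted p = 0.0746. Gch1, which makes the cofactor of nitric oxide synthase, had 215, 213, 132 and 146 CPM against 98.3, 98.8, 115 and 106 CPM, a log2 difference of -0.76 (SE 0.193, edgeR unadjusted p = 0.00294, adjusted p = 0.0907). Prkg1, the cyclic GMP kinase downstream of nitric oxide, had 0.166, 0.136, 0.377 and 0.24 CPM against 0.515, 0.663, 0.541 and 0.494 CPM, a log2 difference of 1.27 (SE 0.367, edgeR unadjusted p = 0.0061, adjusted p = 0.118). DESeq2 called Gch1 and Ptges2, which were among the 1122 genes it called in liver.

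The liver lists of these pathways did not lean strongly one way. Among 16 nitric oxide genes the median log2 difference was 0.28, with Ddah1, Cav1, Gucy1a1, Prkg1 and Pde5a higher and Nostrin, Gch1 and Ass1 lower at an unadjusted p under 0.05. Among 16 prostaglandin genes the median was 0.12, with the transporter Slco2a1 higher and Ptges2 lower. Among 10 kallikrein-kinin genes it was 0.02, with the peptidase Mme higher. The endothelin-converting enzyme Ece1, the single endothelin gene of the list that could be tested, had 69.7 ± 16.8 CPM with normal diet and 109 ± 24.1 CPM with high salt (SD, n = 4, edgeR unadjusted p = 0.0188, adjusted p = 0.168).

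**Figure D5:**
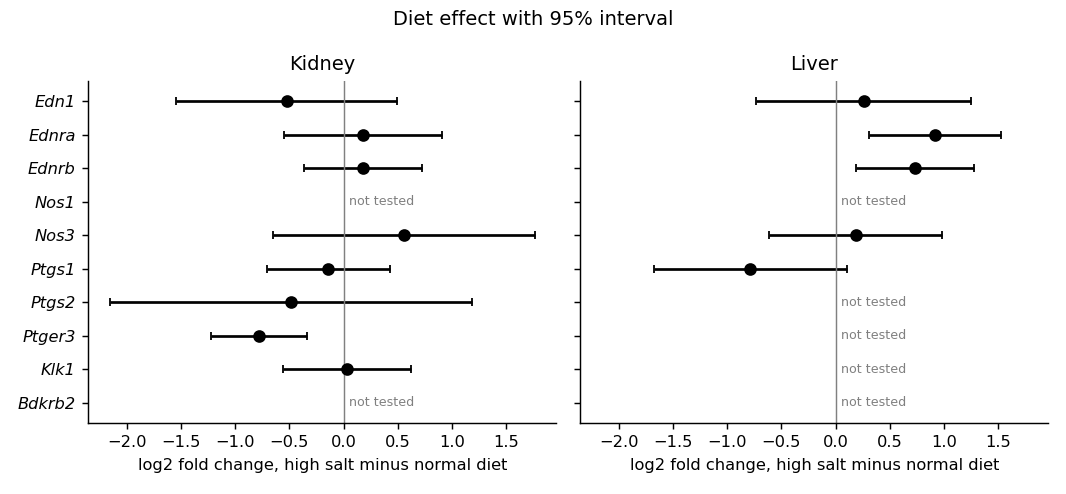
Log2 fold change of high salt against normal diet from edgeR for each gene, with its 95% interval, in kidney (left) and liver (right). The intervals of Ptger3 in kidney and of Ednra and Ednrb in liver lie off 0 before adjustment, and genes under the filter on low counts or without a row are marked as not tested.

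Whether the diet difference itself differed between liver and kidney was tested as an interaction, in which edgeR called 0 of 16633 genes (0%), while 10.1% had an unadjusted p under 0.05. For Ednra the liver difference exceeded the kidney difference by 0.76 on the log2 scale (SE 0.409, edgeR unadjusted p = 0.0839, adjusted p = 0.544), and for Ednrb by 0.58 (SE 0.334, edgeR unadjusted p = 0.104, adjusted p = 0.568). The higher receptor levels in high salt liver are therefore not shown to differ from the kidney differences. Ptger3, with 1 and 14 liver counts in the diet groups, was kept in this fit by its kidney counts, and no interaction value is given for it.

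Among the other pathway genes, Ptgfr, Ace and Ptges had the largest excess in kidney on the normal diet, with log2 differences of 7.91, 7.58 and 5.21. Arg1, Kng1 and Gch1 had the largest excess in liver, with log2 differences of -11.32, -11.14 and -8.13. Kng1 encodes a kininogen, a substrate of kallikrein, and Ace an enzyme that degrades kinins. Kng2, another kininogen gene of the list, differed by -0.87 (SE 0.197, edgeR adjusted p = 0.00119). Its normal diet levels, each scaled within its own tissue, were 190 CPM in kidney and 239 CPM in liver. Those levels are therefore not on the scale of the fitted difference. Ace, Ptges, Kng1 and Gch1 had edgeR adjusted p = 9.87e-10, 7.32e-07, 1.02e-10 and 1.31e-09, while Ptgfr and Arg1 entered the fit through the tissue where they are high. The normal diet kidneys had 0, 44 and 1 counts of Arg1, and without library 2 its difference was -16.17. Leaving out 1 library gave 4.76 (without kidney 1) to 6.41 (without liver 4) for Ptges, 7.18 (without kidney 1) to 8.25 (without liver 4) for Ace, -8.95 (without kidney 3) to -7.80 (without kidney 1) for Gch1, and 7.66 to 8.55 (without liver 3) for Ptgfr.

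The genes most like the better-expressed ones were found from the root mean square difference of centred log2(CPM + 0.5) profiles over the 14 libraries, among 16632 genes. Ednrb was closest to Adamtsl1 (0.204) and Prkg1 (0.215), and Ptgs1 to Fcgr4 (0.201) and F630028O10Rik (0.236). Ptger3 was closest to Acss1 (0.214) and Paqr5 (0.216), and Klk1 to Kl (0.266) and Kcnj15 (0.277). The tissue difference and the 14 libraries are shared by all these pairs, and the values are a description.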

How the data were processed

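Liver and kidney RNA was sequenced from SMARTer mRNA libraries, per the labels' protocols, and samples were grouped by labelled tissue and diet. High salt liver columns 5 to 8 show the diet but no titled replicate number, so they served as replicates without one. The authors deposited expected counts per gene, estimated and not always whole, per the file headers. A second set the authors deposited, scaled expression signal per gene (not logged), was used in 1 alternative. STAR 2.5.3a, Partek 7.0, DESeq2 and the build mm10 are named in the submitters' processing notes, and their settings are not given in the sources used here. Every gene of the count tables had a total of at least 10 counts. Per-sample columns not used numbered 0.

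Rounded expected counts went into edgeR 4.0.16 with its quasi-likelihood test, filterByExpr and TMM scaling, in R 4.3.3, per tissue, with diet as the term. Interaction and tissue contrasts came from 1 fit of all 14 libraries over 17600 shared genes. Benjamini-Hochberg adjusted p-values under 0.05 over all genes tested were called. Standard errors give 95% intervals of edgeR's fit. Ratios used log2(CPM + 0.5). DESeq2 1.42.0 and limma 3.58.1 served as alternatives. Gene models were GENCODE M21 (GRCm38), in which 97.7% of kidney and 97.8% of liver names were found. The spread between replicates (common BCV) was 0.30 in kidney and 0.314 in liver. A count of 0 allows up to 3 counts. The fits were tested on simulated counts. The members, gene lists, tests and alternatives were chosen with earlier results of these data known. All 10 members are named. Of the other pathway genes, the rule named those past the threshold, the 3 smallest unadjusted diet p-values per tissue and the 3 highest and 3 lowest tissue differences. Ptger4, the genes listed at an unadjusted p under 0.05 in liver, Ece1, Kng2 and Klk1b4 were named after their values were seen.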

Additional observations from a re-analysis of the deposited data

Results flagged for a closer look

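Among the 18 liver groups of 4 libraries formed by the 9 genes and 2 diets, 3 had 1 library far from the other 3. For continuous, normally distributed values the rule flags about 1 in 20 groups by chance, or 0.9 here. That rate does not hold at low counts, since a single count beside libraries all at 0 is always flagged. The 3 flags are therefore not set against it. All 3 flagged groups concern genes with few counts in liver. Nos1 was at 0.231 CPM in high salt library 5, with 13 counts, while the other high salt libraries lay between 0.0414 and 0.053 CPM. Ptger3 was at 0.0315 CPM in normal diet library 3, a single count, while the other normal diet libraries had 0 counts. Klk1 was at 0.472 CPM in normal diet library 3, with 15 counts, while the others lay between 0.0545 and 0.12 CPM. In these genes a few reads decide the value.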

How the results depend on the processing

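Without a replicate number that marks a shared animal, kidney libraries were checked for pairing. Same-numbered libraries correlated at 0.486, 0.464 and -0.129, and differently numbered libraries at -0.555 to 0.474. These values do not settle whether the numbers pair the libraries, so the main fit used no pairing. The replicate block called 0 genes, 0 of the 10 genes and 0 other pathway genes, and Ptger3 had a log2 difference of -0.78 (edgeR adjusted p = 0.998). No paired analysis was possible in liver because the high salt columns share no number with the normal diet libraries.

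DESeq2 called 11 genes in kidney, 1122 in liver and 145 in the interaction, among them Ednra alone of the 10 genes and 2 other pathway genes in liver. Liver calls were 12 with high salt libraries 5 and 6 summed, 13 with them summed and normal diet library 4 left out, 260 in 1 fit of all 14 libraries (with 1 other pathway gene, Ptges2) and 52 without normal diet libraries 1 and 2 (with 1 of the 10 genes, Ptgs1). The last of these, the sum without library 4 and tissue-wise TMM were chosen after seeing the data. Requiring 10 counts in every library called 2 interaction genes and, between tissues, 1 of the 10 genes and 24 other pathway genes. Fewer genes were tested in that setting, but Nos3 was still tested between tissues and was not called. Leaving out 1 library at a time gave 12 (without high salt 6) to 765 (without normal diet 3) liver genes, 0 to 2 of the 10 genes, 0 to 5 other pathway genes (Gch1, Gucy1a1, Prkg1, Ptges2 and Mme) and 0 to 7 interaction genes. What made these numbers change was not tested.

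Directions of log2 differences that were not called also turned. Between tissues, Ednra was 0.10 and Ptgs1 0.18 with upper quartile scaling, and 0.021 and 0.11 with 10 counts in every library. In liver, Nos3 was -0.31 without normal diet libraries 1 and 2, and Edn1 -0.041 without library 4 and with 5 and 6 summed. Leaving out 1 library gave -0.057 to 0.45 for Edn1 and -0.034 to 0.44 for Nos3 in liver, -0.0040 to 0.31 for Ednra, -0.87 to 0.68 for Ptgs2 and -0.11 to 0.27 for Klk1 in kidney, -0.32 to 0.051 for Ednra and -0.34 to 0.30 for Ptgs1 between tissues, and -0.46 to 1.71 for Klk1 and -0.83 to 0.95 for Bdkrb2 in the interaction. The same step gave -0.0715 to 0.153 for the log2 ratio of Ednrb to Ednra, -0.472 to 0.263 for Ptgs2 to Ptgs1, -0.152 to 0.494 for Nos3 to endothelium markers and -0.141 to 0.0962 for Ednrb to endothelium markers in kidney, and -0.00376 to 0.214 for the last of these in liver. With 3 or 4 libraries a group, replicate spread limits these values, and for Nos1, Bdkrb2 and Ptgs2, and in liver Klk1 and Ptger3, depth does.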
